A study of Mus musculus with 2 samples.

Results

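The 44 genes described here are the mouse genes for Wnt ligands, for the proteins that acylate and release them, for Frizzled receptors and their Lrp5 and Lrp6 co-receptors, and for secreted Wnt antagonists. They were taken by gene symbol from the 55536 annotated genes of the deposited tables, each with at least 1 protein_coding transcript. The rule itself uses names alone, although it was written with earlier results of these data known. They comprise 19 ligands, 2 secretion genes (Porcn and Wls), 10 Frizzled receptors, 2 co-receptors, 5 antagonists with a Frizzled-like domain (Frzb and the Sfrp genes) and 6 other antagonists (the Dickkopf genes, Dkkl1 and Wif1). RNA was measured in hippocampus, which the labels call a layer of the hippocampus, from female mice of strain B6CASTF1/J, an F1 hybrid of C57BL/6 and the wild-derived CAST strain, at 25 days of age and with no treatment in the labels. There was 1 group of 2 libraries, biological replicates 1 and 2, each made from 300 ng of ribosomal-RNA-reduced total RNA with spike-ins. Both carried the same donor entry and separate biosample entries, so the spread between them may or may not include that between animals. With no second group, the account gives levels and the difference between the 2 libraries, and no test between conditions was possible.

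Wnt proteins are secreted, lipid-modified signals. Porcupine, the product of Porcn, attaches the lipid in the endoplasmic reticulum, and Wntless, the product of Wls, carries the ligand to the cell surface. In the canonical branch a ligand bound to a Frizzled receptor and an Lrp5 or Lrp6 co-receptor stabilises beta-catenin, while other branches act on cell polarity and calcium. Secreted antagonists either bind the ligand, as Sfrp proteins and Wif1 do, or block the co-receptor, as Dkk1 does. In the hippocampus the pathway is known for its roles in the formation of this region, in the production of dentate granule cells and at synapses.

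The lipid is carried by a single serine, and the coding bases around it are shown because they are the feature on which the secretion genes described below act. Each stretch runs 5′ to 3′ on the coding strand over 10 codons, and the capitals mark the codon of the acylated serine. The 7 ligands shown are those with a mean level of at least 1 TPM, in order of level; TPM is transcript abundance corrected for length and scaled to the same total in each library.
Wnt7b: tgtaagtgtcacggtgtgTCAggctcctgt
Wnt7a: tgtaagtgccatggtgtgTCAggctcctgt
Wnt5a: tgtaagtgtcatggagtgTCTggctcctgt
Wnt2: tgcaagtgtcatggtgtgAGTggctcctgt
Wnt4: tgcaagtgtcacggggtgTCGggctcctgc
Wnt9a: tgcaaatgccatggtgtgTCTggctcctgc
Wnt10a: tgcaaatgccacggcaccTCAggcagctgc
The stretches were read from GENCODE M21 transcripts on mm10. The Wnt7b stretch lies in exon 4 of 4 at chr15:85537812-85537841, minus strand, and that of Wnt7a in exon 4 of 4 at chr6:91366272-91366301, minus strand. The Wnt5a stretch lies in exon 5 of 5 at chr14:28522509-28522538, plus strand. That of Wnt2 lies in exon 4 of 5 at chr6:18008792-18008821, minus strand, that of Wnt4 in exon 5 of 5 at chr4:137296339-137296368, plus strand, that of Wnt9a in exon 4 of 4 at chr11:59330920-59330949, plus strand, and that of Wnt10a in exon 4 of 4 at chr1:74803150-74803179, plus strand. A match was found once in the leading coding transcript of each of the 19 ligands. The search pattern, applied to the translated coding bases, required the serine and the cysteines, histidine and glycines around it. Among the 18 stretches compared, 13 of 30 bases were the same in all. Most of these shared bases were set by the search pattern, so their number does not measure conservation. The codon used for the required serine opened with TC in 16 stretches and was AGT in Wnt2 and Wnt2b. The Wnt7a stretch differed from that of Wnt7b at 2 bases, that of Wnt5a at 3 and that of Wnt10a at 10.

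The tables held 34919989 and 41206890 expected counts in replicates 1 and 2. Nuclear protein-coding genes took 43.4% and 42.0% of TPM, and the 44 genes took 0.0712% and 0.0728% of the counts. All 44 had whole expected counts in both libraries, to within 0.005, as did 85.2% of nuclear protein-coding genes with a count, so in the first quantification no read was divided between one of them and another gene. In the second quantification 14 of them had a fractional estimated count in at least 1 library, and the matching share of all genes was not computed. Markers of the hippocampal fields were present, with Wfs1 of CA1 at 89.6 and 78.0 TPM and Prox1 of dentate granule cells at 45.9 and 37.9 TPM. In tissue RNA, fewer cells of a type and less RNA per cell cannot be told apart.

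Of the 44 genes, 21 (47.7%) reached 1 TPM in both libraries, against 57.6% of nuclear protein-coding genes. Their median level was 1.08 TPM, against 3.21 TPM over the 22015 nuclear protein-coding genes. Detection was uneven among the roles. It covered 6 of 19 ligands, 8 of 10 Frizzled receptors, both co-receptors, both secretion genes, 2 of 5 antagonists with a Frizzled-like domain and 1 of 6 other antagonists. Levels ran from 0 counts to about 100 TPM, and 7 genes had a mean of at least 10 TPM.

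**Figure D1:**
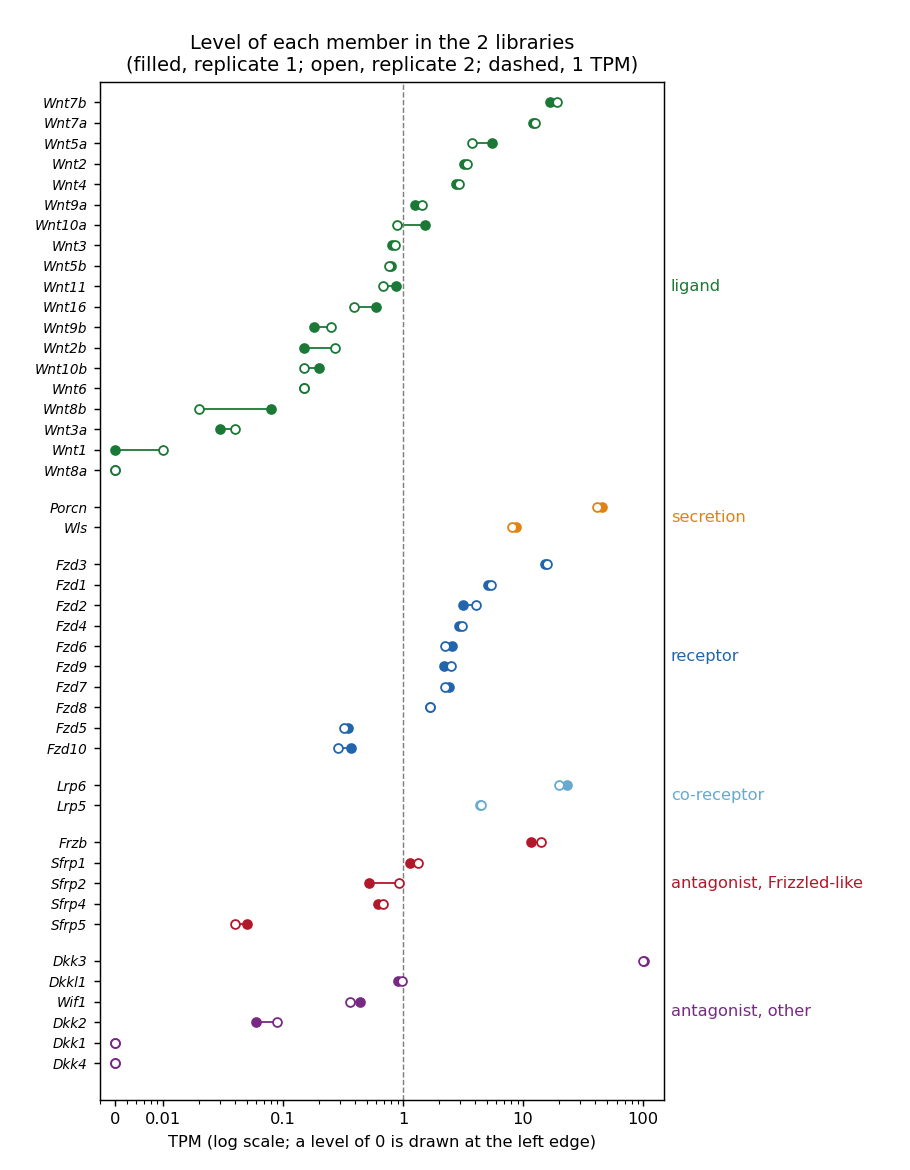
Level of each of the 44 genes in TPM on a log axis, grouped by role, with replicate 1 filled and replicate 2 open and the dashed line at 1 TPM. Dkk3 stood highest, at 102.54 and 98.99 TPM, and 3 genes (Dkk1, Dkk4 and Wnt8a) were at 0 in both libraries.

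Among the ligands, Wnt7b was the most abundant and Wnt7a the next. Wnt7b (ENSMUSG00000022382.15, chromosome 15, 85535437 to 85582473, minus strand), a ligand known for vascular development of the brain and for dendrite growth, was at 16.6 and 19.0 TPM in replicates 1 and 2. Its close relative Wnt7a (ENSMUSG00000030093.7, chromosome 6, 91363981 to 91411363, minus strand), known for its action at synapses, was at 12.2 and 12.5 TPM. The values of the 2 genes did not overlap. Wnt5a (ENSMUSG00000021994.15, chromosome 14, 28504750 to 28527448, plus strand), the best known ligand of the non-canonical branches, was at 5.49 and 3.74 TPM. It was the third ligand in order in both libraries, above Wnt2 at 3.22 and 3.41 TPM.

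The other detected ligands were low. Wnt4, known from kidney and gonad formation, was at 2.77 and 2.92 TPM. Wnt9a, known from joint formation, was at 1.27 and 1.45 TPM. Wnt10a, known from tooth and skin appendages, was above 1 TPM in replicate 1 alone, at 1.51 against 0.89 TPM, from 71 and 63 counts, and its range overlapped that of Wnt9a. The remaining 12 ligands had means under 1 TPM. Wnt3, at 0.81 and 0.85 TPM, Wnt5b, at 0.80 and 0.77, and Wnt11, at 0.88 and 0.68, were the highest of them. Wnt3a, whose loss is known to prevent formation of the hippocampus in the embryo, had 2 and 3 counts at this age. Wnt8b, a classic marker of the embryonic hippocampal field, had 3 and 2 counts. Wnt1 had 0 and 1. Wnt8a had 0 counts in both, where 3 counts would be 0.0757 and 0.0606 TPM.

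Summed over all 19 genes, ligand RNA came to 47.0 and 47.5 TPM. Wnt7b made up 35.4% and 40.1% of that sum. The sum of the 2 secretion genes was slightly above it, at 53.9 and 49.1 TPM. By protein_coding transcripts alone, ligands came to 37.52 and 39.39 TPM and secretion genes to 40.3 and 36.85. On that basis the order differed between the libraries. Porcn (ENSMUSG00000031169.13, chromosome X, 8193848 to 8206525, minus strand), the acyltransferase, was second of all 44 genes at 45.2 and 41.1 TPM. Wls (chromosome 3, 159839672 to 159938664), the carrier, was at 8.71 and 8.05 TPM, and the 2 genes did not overlap.

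Fzd3 led the receptors. Fzd3 (ENSMUSG00000007989.7, chromosome 14, 65192449 to 65262463, minus strand), a receptor known for axon guidance through planar polarity signalling, was at 15.2 and 15.9 TPM and held 42.3% and 42.2% of Frizzled TPM. Fzd1 followed at 5.13 and 5.41 TPM, and Fzd2 was at 3.17 and 4.02. These 3 receptors did not overlap each other.

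The next Frizzled receptors lay close together. Fzd4, the receptor for Norrin as well as for Wnt ligands, was at 2.91 and 3.10 TPM. Fzd6, a planar polarity receptor of skin and hair, was at 2.54 and 2.23, Fzd9, a receptor whose loss is known to affect the dentate gyrus, at 2.18 and 2.53, and Fzd7 at 2.42 and 2.24. The ranges of Fzd6, Fzd9 and Fzd7 overlapped, so their order was not resolved. Fzd8 was at 1.69 TPM in both libraries. Fzd5, at 0.35 and 0.32 TPM, and Fzd10, at 0.37 and 0.29, were the Frizzled genes under 1 TPM. The 10 receptors summed to 36.0 and 37.8 TPM.

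Of the co-receptors, Lrp6 (ENSMUSG00000030201.15, chromosome 6, 134446476 to 134566965, minus strand) was at 23.10 and 20.02 TPM and Lrp5 at 4.36 and 4.43 TPM. Lrp6 thus made up 84.1% and 81.9% of their sum, and was the third of all 44 genes by gene TPM. By protein_coding transcripts alone Lrp6 was at 18.70 and 17.68 TPM and Wnt7b at 16.36 and 19.04. On that basis their ranges overlapped.

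A single gene accounted for nearly all RNA of the Dickkopf and Wif1 group. Dkk3 (ENSMUSG00000030772.6, chromosome 7, 112116017 to 112159057, minus strand), a divergent Dickkopf gene whose protein is not an established Lrp6 inhibitor, was at 102.54 and 98.99 TPM from 8042 and 9694 counts. It was the highest of the 44 genes in both libraries and ranked 813 among nuclear protein-coding genes. The 6 genes of its group together made up 36.6% of the TPM of all 44. Dkk1 and Dkk4, which do block Lrp6, had 0 counts in both libraries. For Dkk1 the limit that 3 counts set was 0.0536 and 0.0429 TPM, and for Dkk4 it was 0.103 and 0.0821. The second deposited quantification assigned 2.13 and 5.13 estimated counts to Dkk1, and 6 and 5 to Dkk4, so the 0 holds for the first quantification alone. Dkk2 was at 0.06 and 0.09 TPM. Dkkl1, a Dickkopf-like gene known from sperm, was at 0.91 and 0.99 TPM, and Wif1, which binds ligands directly, at 0.44 and 0.36.

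Frzb led the antagonists with a Frizzled-like domain. Frzb (ENSMUSG00000027004.3, chromosome 2, 80411970 to 80447625, minus strand), also called Sfrp3 and known as a brake on adult dentate neurogenesis, was at 11.7 and 14.0 TPM. Sfrp1 was at 1.15 and 1.33 TPM, far below it. Sfrp2 was at 0.52 and 0.93, Sfrp4 at 0.62 and 0.68, and Sfrp5 at 0.05 and 0.04 from 2 counts in each library. Frzb made up 83.4% and 82.4% of the summed TPM of these 5 genes.

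The share of the leading gene in its role ran from 37.7% for Wnt7b to 98.6% for Dkk3 as the mean of both libraries. The same gene led each of the 6 roles in the second quantification and when only protein_coding transcripts were summed.

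The level of a gene can depend on how reads were divided among its transcripts. Of the 21 detected genes, 10 had 1 annotated transcript and 11 had several. In 7 of these 11 the most abundant transcript took more than 50% of TPM, and in all 11 it was protein_coding. The matching shares of all genes with several transcripts were not computed, so these counts do not set the 11 apart. The leading transcript differed between the libraries for Fzd6 alone. A coding transcript of 4081 bases led replicate 1 with 45.2%, and one of 4325 bases led replicate 2 with 77.9%. In replicate 1 the 2 were nearly level, with the longer at 42.2%, from 109 counts against 110. Each has 2127 coding bases, and 98.6% of the bases of the shorter lie in the longer. The second quantification gave another leader for Wnt7b and Wnt5a.

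**Figure D2:**
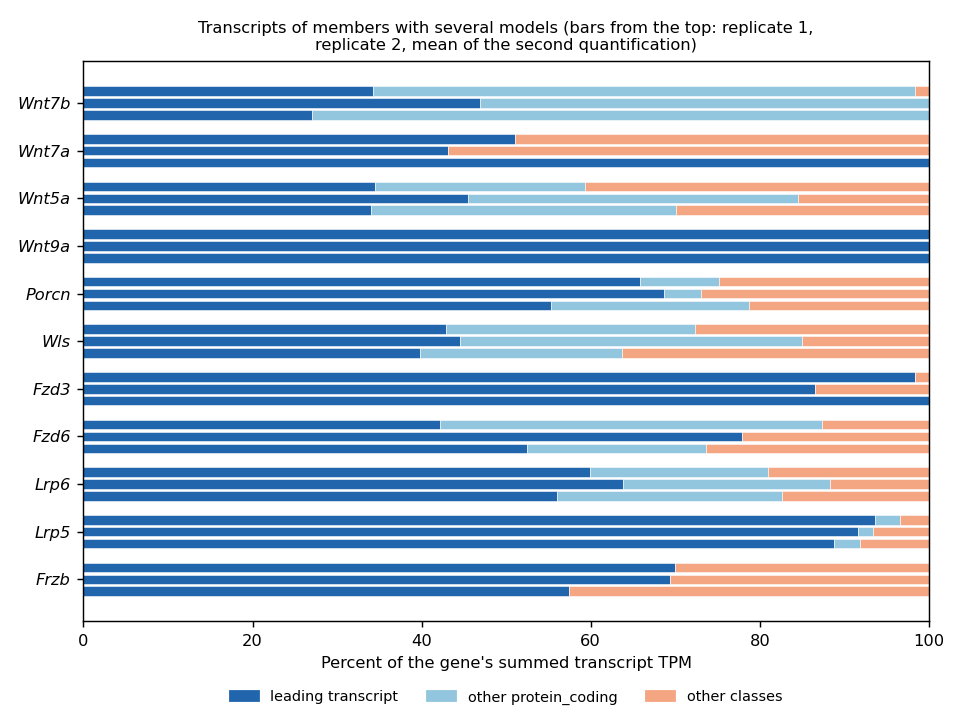
Percent of each gene's TPM in its leading transcript, in other protein_coding transcripts and in transcripts of other classes, for the 11 detected genes with several transcripts, with bars for replicate 1, replicate 2 and the mean of the second quantification. Wnt7a had 51.1% and 43.1% of its TPM in its coding transcript in the first quantification and 100% in the second.

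Wnt7a has a single coding transcript, Wnt7a-201, of 3172 bases, which was at 6.22 and 5.39 TPM. The rest of the gene's TPM, 49.0% in replicate 1 and 56.9% in replicate 2, was on 2 noncoding transcripts of 297 and 293 bases that lie wholly within the 3′ untranslated region of Wnt7a-201. These short transcripts held only 27.9 and 41.9 of the gene's expected counts, or 5.71% and 7.77%. In the second quantification both were at 0. Wnt7b was 1.45 times Wnt7a by gene TPM, 3.05 times by coding transcripts and 2.67 times in the second quantification. Its place above Wnt7a thus held in each of the 3 readings and its margin did not. Wnt7a stayed second among ligands in all 3.

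For Wnt7b the coding RNA was spread over transcripts with different coding starts. The first 45 coding bases of the 3 transcripts with most TPM are shown because they carry the difference, with the first ATG in capitals.
Wnt7b-202: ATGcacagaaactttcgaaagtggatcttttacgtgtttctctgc
Wnt7b-201: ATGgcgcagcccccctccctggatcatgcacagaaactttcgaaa
Wnt7b-204: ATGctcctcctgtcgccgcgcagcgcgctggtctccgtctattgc
All are on the minus strand of chromosome 15 in mm10, at chr15:85581406-85581450, chr15:85581431-85581475 and chr15:85577546-85577590, in exon 1 of 4 of each transcript. Wnt7b-202 held 34.3% and 46.9% of the gene's TPM, Wnt7b-201 33.8% and 26.5%, and Wnt7b-204, which begins at an exon of its own, 28.4% and 22.3%. The first exons of Wnt7b-202 and Wnt7b-201 end at the same base but have 203 and 442 bases. The coding start of Wnt7b-202 lies 25 bases inside the coding sequence of Wnt7b-201. The annotation reads the 71 and 223 coding bases that these 2 transcripts share in exons 1 and 2 in different frames. Exon 2 ends 4 bases earlier in Wnt7b-201, after which the 749 coding bases shared in exons 3 and 4 are in the same frame, the acylation site among them. Together Wnt7b-201 and Wnt7b-202 held 68.0% and 73.4%, and in the second quantification 67.5% and 59.9%. The level of the gene itself hardly depended on this division, with coding transcripts at 16.4 and 19.0 TPM. The order of the 2 transcripts differed between the quantifications, since the second put 37.1% on Wnt7b-201 and 30.4% on Wnt7b-202 in replicate 1.

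Wnt5a likewise had 2 coding transcripts, shown by the first 45 coding bases of each, again with the first ATG in capitals.
Wnt5a-201: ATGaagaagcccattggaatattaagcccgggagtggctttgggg
Wnt5a-202: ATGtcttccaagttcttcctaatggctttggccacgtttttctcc
Both are on the plus strand of chromosome 14. The stretch of Wnt5a-201 begins in exon 1 at 28506109 and ends in exon 2 at 28511861, and that of Wnt5a-202 lies in exon 2 at chr14:28511877-28511921. The coding sequence of Wnt5a-202 is the one of Wnt5a-201 without its first 60 bases. Wnt5a-201 held 34.4% and 45.5% of the gene's TPM and Wnt5a-202 25.0% and 39.0%. As TPM of the transcript, Wnt5a-201 was at 1.89 and 1.70 and Wnt5a-202 at 1.37 and 1.46. Protein_coding transcripts summed to 3.26 and 3.16 TPM, closer together than the gene's 5.49 and 3.74. On that basis its range overlapped that of Wnt2, at 3.22 and 3.41, so the place of Wnt5a above Wnt2 depended on its noncoding models.

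Porcn coding RNA was mostly of the form with the longest coding sequence. Its 4 coding transcripts differ by 2 short coding blocks, shown in capitals with the neighbouring coding bases of the transcript that has both in lower case.
Porcn first block: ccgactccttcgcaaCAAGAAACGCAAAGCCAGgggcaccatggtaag
Porcn second block: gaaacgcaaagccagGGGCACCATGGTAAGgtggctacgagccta
The first block has 18 bases, at chrX:8203026-8203043, and the second 15 bases, at chrX:8201658-8201672, both on the minus strand of mm10. In the first quantification the first block was in 100% of coding TPM in both libraries, and the second in 87.5% and 94.1%. The second quantification gave 100% for the first block and 70.4% and 70.0% for the second. The 2 coding transcripts that lack the first block were at 0 TPM in both quantifications. Protein_coding transcripts made up 75.22% and 73.01% of Porcn TPM, and retained-intron or decay-class models the rest.

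The other detected genes with several transcripts kept the same leader in both quantifications, with shifts in its share. The longest Lrp6 transcript, of 9368 bases, held 59.9% and 63.8% of the gene's TPM and 53.7% and 58.5% in the second quantification. An annotated coding fragment of 722 bases held 21.1% and 24.5% of TPM in the first quantification, but only 2.21% and 2.46% of the gene's expected counts. The coding transcript of Frzb held 70.0% and 69.4% of its TPM, with the rest on a noncoding one, and 61.4% and 54.5% in the second quantification. The noncoding Frzb transcript took 9.33% and 9.54% of the gene's expected counts. The leading coding transcript of Wls held 42.8% and 44.6%, followed by another coding one at 29.5% and 40.5%, which the second quantification put at 18.8% and 29.1%. A decay-class model of Wls held 15.7% and 10.6%, and 28.8% and 28.9% in the second quantification. Wnt11, under 1 TPM, had 4.55% and 33.8% of its TPM on coding transcripts, from 34 and 35 counts in all.

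Some of the genes share sequence or place. Coding sequences of Fzd2 and Fzd7 were identical at 77.4% of the bases of the longer one, those of Wnt3 and Wnt3a at 77.3% and those of Wnt7b and Wnt7a at 77.1%. These were the closest pairs within a role by that measure. By identity over aligned bases alone, Fzd1 and Fzd2 were closest, at 82.65%, followed by Wnt5a and Wnt5b, at 80.6%. Of the 10 Frizzled receptors, 7 are coded by 1 exon, and Fzd3, Fzd4 and Fzd6 by several. The ligands lie in 4 pairs within 100 kb, namely Wnt6 and Wnt10a on chromosome 1, Wnt3a and Wnt9a and, separately, Wnt9b and Wnt3 on chromosome 11, and Wnt10b and Wnt1 on chromosome 15. The closest pair, Wnt6 and Wnt10a, was separated by 6193 bases, and stood at means of 0.15 and 1.20 TPM. Exons of 6 of the 44 genes overlap an annotated gene on the opposite strand, and whether the counting used strand is not given in the sources used here. The highest of these neighbours, AU022754, shares 6.61% of Wnt7b exonic bases and was at 0.59 and 0.55 TPM.

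**Figure D3:**
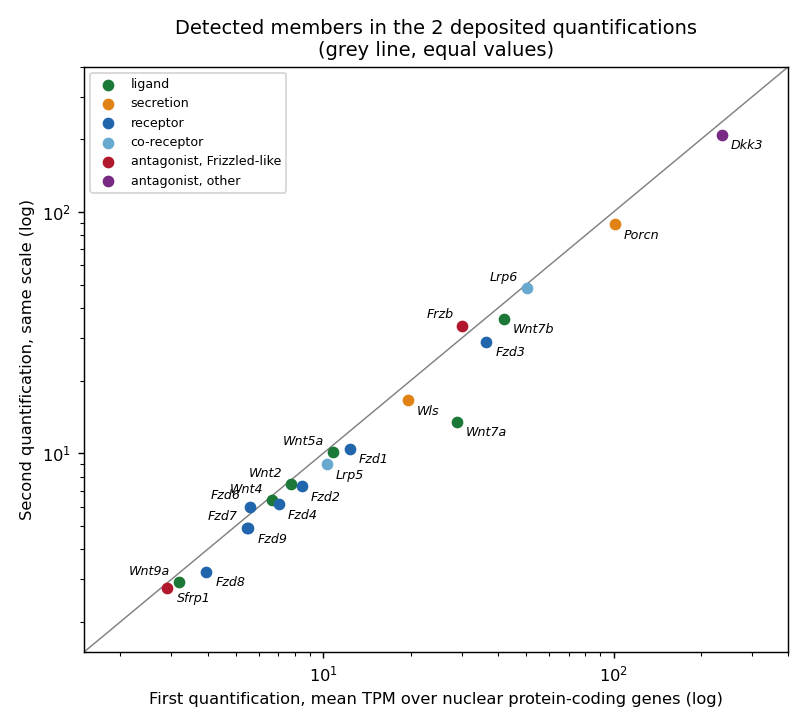
Mean TPM of the 21 detected genes over nuclear protein-coding genes in the first quantification (x axis) and in the second (y axis), both log scales, with the line of equal values. Wnt7a lay farthest below the line, at 0.467 of its first value, and the median over the 21 genes was 0.884.

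After both quantifications were rescaled to nuclear protein-coding genes, the second gave a median of 0.884 of the first over the 21 detected genes. The range was from 0.467 for Wnt7a to 1.12 for Frzb. On that rescaled basis Frzb was above Wnt7a in both libraries of the second quantification, whereas their ranges overlapped in the first.

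The difference between the 2 libraries was read as a ratio for each gene. Ratios of replicate 2 to replicate 1 were taken for the 21 genes whose expected counts in the 2 libraries together reached 200. None was 1.5-fold apart, against 3.87% of all 12960 genes with that many counts and 2.27% of nuclear protein-coding genes. At shares that low, finding none among 21 genes does not set them apart. The median log2 ratio was 0.07, against -0.07 over all genes. Of the 21, 13 were higher in replicate 2, 7 lower and 1 equal. Of all genes, 34.7% were higher. With TMM scaling of counts the split was 14 higher and 7 lower, against 55.9% higher of all genes, and in the second quantification it was 11 and 10, against 41.7%.

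**Figure D4:**
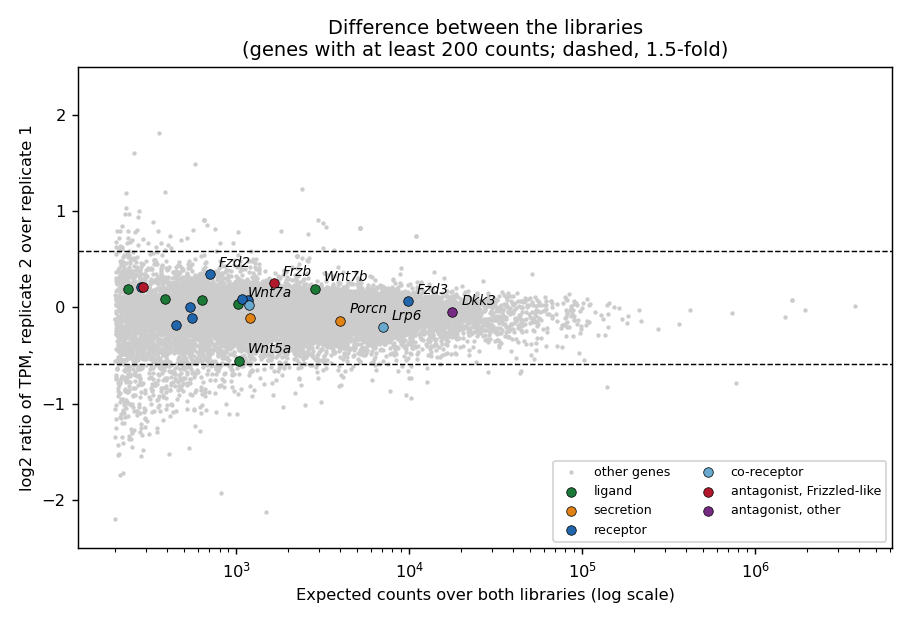
The log2 ratio of TPM between replicate 2 and replicate 1 (y axis) against expected counts over both libraries (x axis, log scale) for genes with at least 200 counts, with the Wnt genes in colour by role and dashed lines at 1.5-fold; 3 other genes fall outside the axis. The Wnt genes lay between -0.55 for Wnt5a and 0.34 for Fzd2.

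Wnt5a was lowest, with a TPM ratio of 0.681 (exact 95% counting interval 0.602 to 0.771), and Fzd2 highest, with 1.27 (1.09 to 1.48). These intervals cover counting error only. Other TPM intervals also excluded 1, among them those of Wnt7b (1.06 to 1.23) and Lrp6 (0.827 to 0.908). With TMM scaling the interval of Lrp6 included 1, at 0.921 to 1.01. The Wnt5a counts were 495 and 544, which after TMM scaling gave a ratio of 0.935, and the effective length of the gene in the tables moved from 3748 to 4847 bases. Scaled counts of Wnt5a thus differed by less than its TPM did. For Fzd2, with a single transcript, the TMM ratio was 1.35. The ratios of Wnt7a, Wls, Fzd3 and Dkk3, lay on the other side of 1 with TMM scaling.

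Among the 34 genes with at least 20 counts over both libraries, 4 (11.8%) were 1.5-fold apart, against 6.99% of nuclear protein-coding genes. With TMM scaling, added after the data were seen, they were 2 (5.88%), Sfrp2 and Wnt2b, against 4.67% of nuclear protein-coding genes. Sfrp2 had 24 and 53 counts and a ratio of 1.79 (1.08 to 3.03), and Wnt2b 12 and 26 counts and a ratio of 1.80 (0.877 to 3.92). By TPM Wnt10a was lower in replicate 2 at 0.589 (0.413 to 0.839), and by TMM it was at 0.755 (0.529 to 1.08). Wnt16, with 15 and 19 counts, was at 0.661 (0.318 to 1.40) by TPM and at 1.08 by TMM, while its effective length moved from 1053 to 1623 bases. The TPM intervals of Wnt2b and Wnt16 included 1, as did the TMM interval of Wnt10a. Some markers of neighbouring tissue also differed between these libraries. The 10 choroid plexus markers summed to 30.9 TPM in replicate 1 and 63.9 in replicate 2, mostly through Ttr at 23.5 and 55.1, and Folr1 was at 0 counts in replicate 1. Of the 10, 6 were under 1 TPM in both libraries. Of the 3 with at least 200 counts, 2 were higher in replicate 2 and 1 was lower. The fibroblast marker Dcn was at 14.3 and 24.8 TPM, although its list of 7 genes summed to 241 and 235. Of the 6 genes of that list with at least 200 counts, 1 was higher in replicate 2 and 5 were lower. The 8 thalamus markers summed to 55.8 and 41.5 TPM, with Prkcd at 17.5 and 11.1. Sums were closer for the striatum markers, at 53.1 and 54.3 TPM, and for the neocortex markers, at 92.65 and 87.60. The part of these differences in the ratios of the Wnt genes was not tested.

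The rest of the pathway was read through 5 lists, which overlap in part: the targets Axin2, Lef1, Nkd1 and Tcf7 are also canonical components, Notum and Apcdd1 also secreted inhibitors, Rnf43, Znrf3 and Lgr5 also receptor regulators, Lef1 and Tcf7l2 are also thalamus markers, Rspo1 a neocortex and Sostdc1 a choroid plexus marker. Detection in each of these short lists stands beside the 57.6% of nuclear protein-coding genes that reached 1 TPM in both libraries. Canonical components of the cytoplasm and nucleus were all detected, 36 of 36, with a median of 25.4 TPM. Ctnnb1, which encodes beta-catenin, led them at 235 and 262 TPM, followed by the kinase gene Csnk1a1 at 133 and 127 and the scaffold gene Apc at 130 and 117. Of the nuclear partners, Tcf7l2 was at 7.95 and 4.93 TPM, Lef1 at 2.45 and 2.18, Tcf7l1 at 2.24 and 1.34 and Tcf7 at 1.26 and 1.30.

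Components of the planar polarity and calcium branches were detected in 16 of 18 cases. Camk2a, a kinase of excitatory synapses, was far above the rest at 1577 and 1349 TPM, followed by Rac1 at 175 and 185 and by Prkca at 91.99 and 85.54. Prickle3 and Nfatc4 were under 1 TPM. Celsr3, a partner of Fzd3 in axon guidance, was at 27.3 and 17.3 TPM, a ratio of 0.632.

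Other receptors and regulators of receptors were detected in 14 of 20 cases. Atp6ap2, a proton pump accessory protein that also binds Lrp6, was at 76.5 and 82.2 TPM, and Tnfrsf19 at 26.23 and 21.02. Gpc4, a heparan sulfate proteoglycan, was at 19.6 TPM in both, and Ryk, a Wnt-binding receptor, at 16.6 and 15.1. Ror2, Musk, Kremen2, Lgr5 and Lgr6 were under 1 TPM in both libraries, and Rnf43 in replicate 2. The R-spondin receptor Lgr4 was at 13.1 and 11.3 TPM.

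Other secreted agonists and inhibitors were detected in 8 of 13 cases. Igfbp4 was highest at 38.2 and 35.0 TPM, then Apcdd1 at 17.3 and 17.1, both inhibitors, and Rspo2, an R-spondin that raises receptor levels, at 4.62 and 5.11. Ndp, which encodes Norrin, was at 4.83 and 4.79 TPM. Rspo4, Sost, Cer1, Trabd2b and Draxin were under 1 TPM. Of 12 commonly used beta-catenin target genes 9 were detected. Ccnd1 was at 23.0 and 21.9 TPM, Apcdd1 as above, and Axin2, the feedback inhibitor most often used as a readout, at 10.8 and 9.98. Sp5 and Lgr5 were under 1 TPM in both libraries. Levels of targets in 1 condition give no measure of how active the pathway was.

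**Figure D5:**
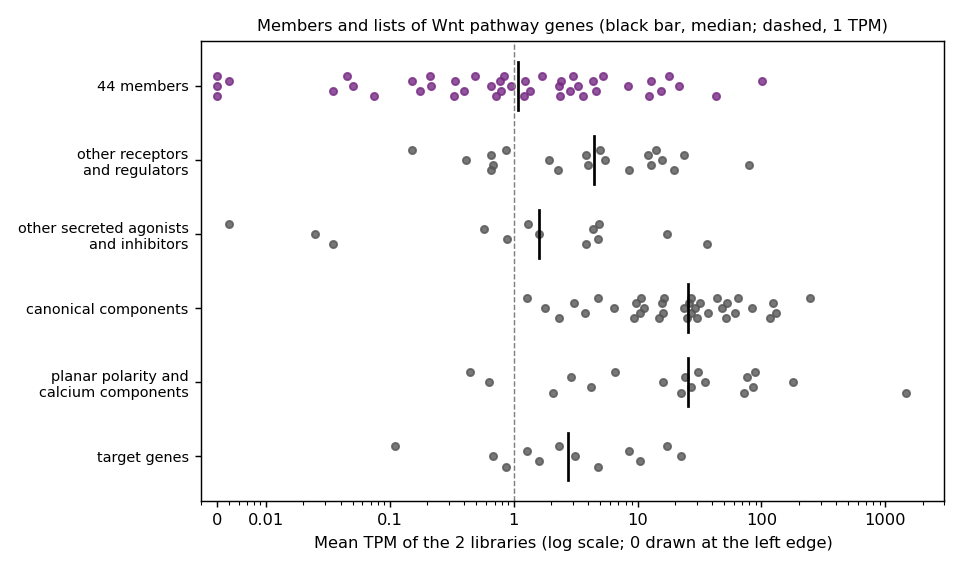
Mean TPM of the 44 genes and of the genes of 5 pathway lists on a log axis, 1 point a gene, with the median of each as a black bar and a dashed line at 1 TPM. The median was 1.08 TPM for the 44 genes, 4.45 for other receptors and regulators, 1.61 for other secreted agonists and inhibitors, 25.4 for canonical components, 25.7 for planar polarity and calcium components and 2.72 for target genes.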

How the data were processed

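Ribosomal-RNA-reduced, stranded total RNA from 2 hippocampus libraries was quantified on mm10, per the labels, with GENCODE M21, per the deposited notes. The authors deposited RSEM-format gene and transcript tables with expected counts, TPM and the percent of gene TPM in each transcript, made from transcriptome alignments, and kallisto-format transcript tables with estimated counts and TPM, made from reads. Versions of the authors' tools were not given in the sources used here. Reads were not split by allele, and loss of CAST reads was not examined.

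TPM was used as deposited, with detection at 1 TPM in both libraries. The 2 quantifications were compared after scaling to nuclear protein-coding genes. Ratios used genes with at least 200 expected counts and exact Clopper-Pearson 95% intervals of the counts. A total of 3 counts served as floor. edgeR 4.0.16 (TMM) and DESeq2 1.42.0 gave size factors on expected counts rounded to whole numbers, and made no tests. No p-values are given with 2 libraries of 1 group. Coding stretches were read from GENCODE M21 transcripts, and no protein sequences were used. Coding identity came from global alignment in Biopython 1.88, with Python 3.11.15 and R 4.3.3.

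Members and lists were chosen with earlier results of these data known. Genes with a mean of at least 1 TPM were named with both values, along with the highest 3 of the others and those at 0 counts. Transcripts were named for means of at least 5 TPM or where the leader differed. Pathway lists were named by their highest 3 genes and those under 1 TPM, and other genes named were chosen after their values were seen. Alternatives were the second quantification, other TPM denominators, count scalings, filters, thresholds, pseudocounts and each library alone.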

Additional observations from a re-analysis of the deposited data

How the results depend on the processing

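The number of detected genes, 21 as reported, was 26 in the second quantification, 28 over nuclear protein-coding TPM, 18 at 2 TPM, 28 at 0.5 TPM, 29 at 20 counts in both libraries and between 21 and 22 in single libraries. The share of all nuclear protein-coding genes, 57.6%, was computed for the reported rule alone. Whether the members fell below that share under the other rules was not tested. Summed TPM depended on the denominator. In the second quantification, on its own TPM scale, ligands summed to 64.6, secretion genes to 77.7, receptors to 54.1, co-receptors to 42.4, Frizzled-like antagonists to 29.2 and other antagonists to 157. Over nuclear protein-coding TPM the same sums were 111, 121, 86.4, 60.8, 36.4 and 239. With protein_coding transcripts only, an alternative chosen after seeing the data, ligands summed to 38.5, secretion genes to 38.6, receptors to 35.2, co-receptors to 22.4 and Frizzled-like antagonists to 11.6, which follows from leaving transcripts out. The count of genes 1.5-fold apart, 0 as reported, was 4 with at least 20 counts, 2 with that filter and TMM scaling, added after seeing the data, and 2 with no filter and a pseudocount of 0.1, where genes of few counts entered, and 0 under the other 6 alternatives. The median ratio of the libraries kept its sign for the Wnt genes under each alternative, while over all genes it went from -0.07 by TPM to 0.02 by TMM on the log2 scale. With TMM scaling 4 of 21 single ratios moved to the other side of 1, and with coding transcripts Wnt5a was no longer above Wnt2. The ranges of Lrp6 and Wnt7b also overlapped with coding transcripts. No paired analysis was possible because there is a single group. For genes with fewer than 20 counts in a library, the counting interval of the ratio between libraries included 1 wherever it was computed.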
